A study of Mus musculus with 14 samples.

Results

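Complement and acute phase genes were followed through pancreatic islets in which the NF-κB kinase IKK2 was made permanently active. The 10 genes were C1qa, C1qb, C1qc, Serping1, C3, Cfb, Lcn2, Saa3, Hp and Ptx3, chosen by name. The gene table of the array used here gave 9 of them a transcript cluster (the array's unit of measurement, a set of probes for 1 transcript region), each with a single cluster, out of 19938 genes in all. C3 is not analysed here.

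Gene expression was measured on 14 Affymetrix Mouse Gene 1.0 ST arrays of islets isolated from untreated 11-week-old mice of a C57BL/6 and NMRI background (1:1). There were 5 arrays of diabetic IKK2-CApdx-1 mice, called IKK2-CA below, which express constitutively active IKK2 in β-cells through the driver allele Pdx-1-tTA. There were 4 arrays of Pdx-1+/- mice, in which that driver leaves the animals haploinsufficient for Pdx-1, and 5 arrays of control mice. IKK2-CA mice carry the same driver, so active IKK2 and the diabetes are what set them apart from Pdx-1+/- mice per the labels, and these cannot be told apart. Values are log2 signals from the robust multichip average (RMA), in which a difference of 1 is a 2-fold change. Levels of different genes are not set against each other. Nothing in the labels ties an array to 1 mouse, so the p-values measure only the spread between these samples, which may be technical.

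Complement is a chain of plasma proteins that tags microbes and dying cells. C1q, built from the chains encoded by C1qa, C1qb and C1qc, recognises the target and activates the proteases C1r and C1s, which the C1 inhibitor encoded by Serping1 blocks. Factor B, encoded by Cfb, joins C3 in the enzyme that amplifies the reaction. In tissues C1q is made largely by macrophages, whereas Cfb, C3, Lcn2 and Saa3 are known as genes that inflammatory cytokines and NF-κB induce in many cell types. Lcn2 encodes lipocalin 2, which withholds iron from bacteria, and Saa3 a serum amyloid A protein that mice make outside the liver. Hp encodes haptoglobin, which binds free haemoglobin, and Ptx3 a locally made pentraxin that binds C1q.

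3 arrays stood apart in transcripts of other tissues. IKK2-CA array 5 held adipocyte transcripts, with Adipoq, the fat-cell hormone adiponectin, at 10.60 against 5.14 to 7.38 on all other arrays. Pdx-1+/- array 4 and control array 3 held transcripts of intestine, with Sis, a brush-border enzyme, at 9.16 and 6.05 against 3.18 to 3.45 elsewhere. Pdx-1+/- array 4 also had the lowest mean over 6 mesothelial markers, at a log2 deviation of −2.05 from the mean of the 14 arrays against −0.47 to 0.82 on the others. Pdx1 read 5.97 to 7.44 on IKK2-CA, 6.85 to 7.32 on Pdx-1+/- and 7.67 to 8.62 on control arrays, so both carriers of the driver allele lay below control. Ikbkb, which encodes IKK2, read 7.42 to 8.03 on IKK2-CA, 7.18 to 7.62 on Pdx-1+/- and 7.30 to 7.52 on control arrays. Whether the array's probes read the transgene was not tested.

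Of the members, Lcn2 and Cfb lay furthest above both other groups in IKK2-CA islets, while the mean differences of the 3 C1q chains were between log2 0.02 and 0.33. None of the 9 members passed the test across all genes in any comparison, which limma (a linear model with a spread shared across genes) made with Benjamini-Hochberg adjustment at 0.05. Against Pdx-1+/- islets 0 of 9 passed in IKK2-CA islets, where 0.0752% of all genes did, and 2 (Lcn2 and Cfb) had an unadjusted p under 0.05, where 7.02% did. Against control islets 0 of 9 passed in IKK2-CA islets, where 2.25% of all genes did (0.682% higher and 1.56% lower), and 1 (Lcn2) had an unadjusted p under 0.05, where 15.7% did. In Pdx-1+/- against control islets 0 of 9 passed, where 0.0953% of all genes did, and 0 had an unadjusted p under 0.05, where 4.71% did.

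**Figure D1:**
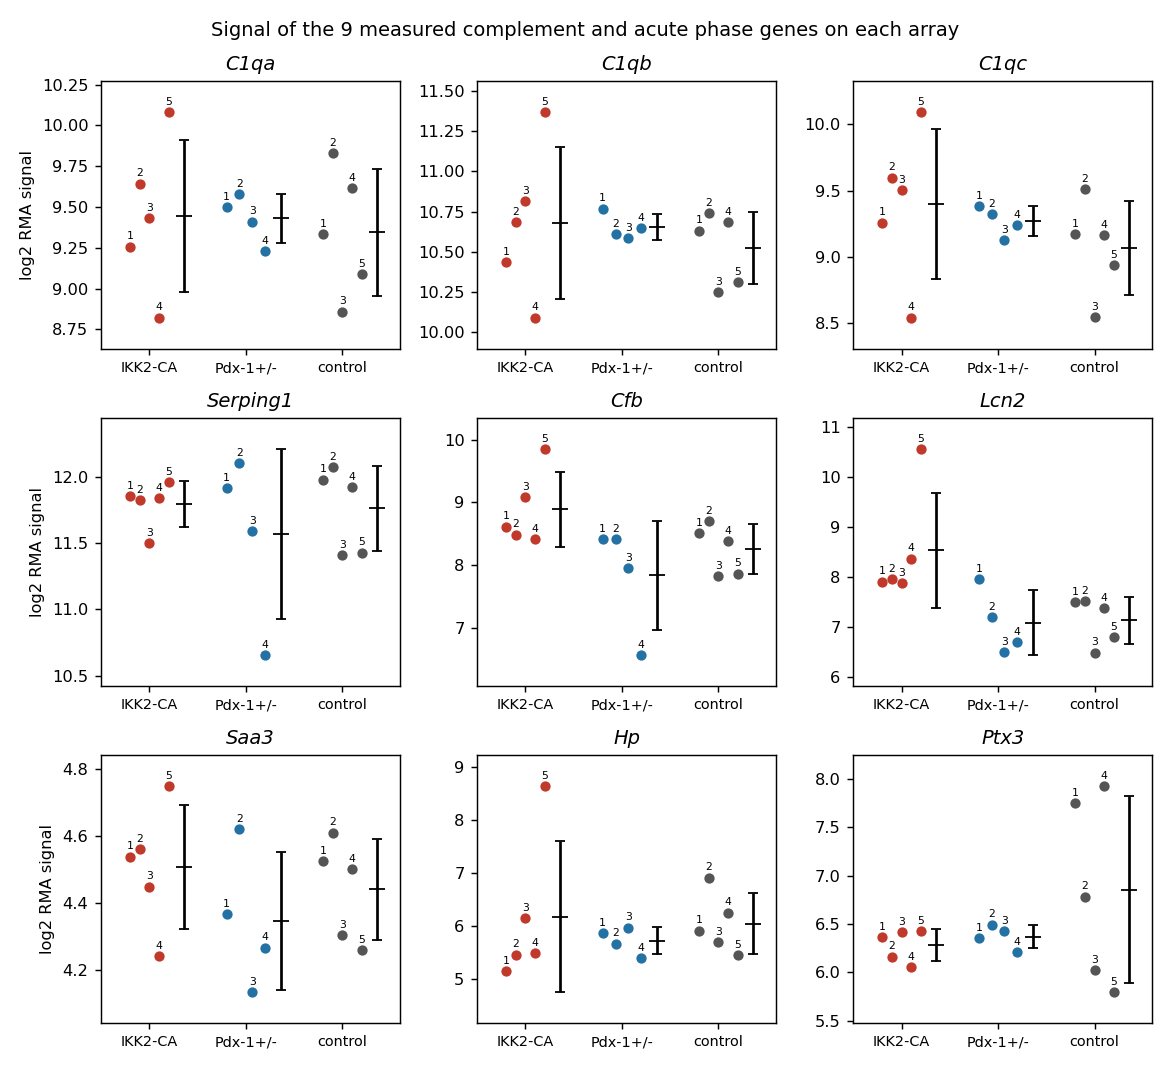
Log2 RMA signal (vertical axis, a separate scale for each gene) of the 9 measured genes on every array, grouped as IKK2-CA, Pdx-1+/- and control. Points are arrays with their replicate number, and the dash and bar are the group mean and SD (n = 5, 4 and 5); Lcn2 is the gene whose 5 IKK2-CA arrays all lie above the 5 control arrays, and array 5 of IKK2-CA is the highest point for Lcn2, Hp, Cfb and the C1q chains.

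C1qa was 9.26, 9.64, 9.43, 8.82 and 10.08 on the IKK2-CA arrays, against 9.50, 9.58, 9.41 and 9.23 on the Pdx-1+/- arrays and 9.33, 9.83, 8.86, 9.61 and 9.09 on the control arrays. The groups overlapped throughout, and the highest and the lowest of the 14 values were both IKK2-CA arrays (5 and 4). The mean difference of IKK2-CA from Pdx-1+/- was log2 0.02 (SE 0.23, limma adjusted p = 0.997), and from control log2 0.10 (SE 0.21, adjusted p = 0.893). The 95% interval of the change against control ran from 0.783-fold to 1.47-fold, so a 2-fold rise lay outside it. Without IKK2-CA array 5 the difference from control was log2 −0.06 (adjusted p = 0.929). In islets as a whole, fewer cells of a type and less RNA per cell cannot be told apart.

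C1qb read 10.09 to 11.37 on IKK2-CA, 10.58 to 10.77 on Pdx-1+/- and 10.25 to 10.74 on control arrays. C1qc read 8.54 to 10.09 on IKK2-CA, 9.13 to 9.38 on Pdx-1+/- and 8.55 to 9.51 on control arrays. All 3 chains had their highest value on IKK2-CA array 5 and their lowest on IKK2-CA array 4. The IKK2-CA difference from control was log2 0.16 (SE 0.18, limma adjusted p = 0.772) for C1qb and 0.33 (SE 0.23, adjusted p = 0.551) for C1qc. The 3 genes are adjacent on mouse chromosome 4, in the order C1qb, C1qc, C1qa in the RefSeq gene table. Over the 14 arrays the Pearson correlation was 0.92 between C1qa and C1qc, 0.90 between C1qa and C1qb and 0.93 between C1qb and C1qc, and 0.89 to 0.90 over the 12 arrays without IKK2-CA array 5 and Pdx-1+/- array 4, given as a description of arrays that share a normalization.

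The 250 bases before the start of C1qb and C1qc are shown because these chains move together, and they come from RefSeq (GRCm38.p6, both on the minus strand, chr4:136886201-136886450 and chr4:136892915-136893164). Capitals mark every match, on either strand, to the motifs searched. These were the κB consensus, TTNNGNAA for C/EBP factors, TTCNNNGAA for STAT factors, TGANTCA for AP-1, the interferon-stimulated response element (ISRE), GAGGAA, a core bound by the macrophage factor PU.1, and TATAAA.
C1qb: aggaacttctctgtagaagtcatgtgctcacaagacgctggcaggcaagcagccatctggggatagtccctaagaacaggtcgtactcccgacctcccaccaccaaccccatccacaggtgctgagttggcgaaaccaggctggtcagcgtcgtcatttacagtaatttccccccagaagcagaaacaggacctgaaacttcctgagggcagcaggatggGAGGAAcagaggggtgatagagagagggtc
C1qc: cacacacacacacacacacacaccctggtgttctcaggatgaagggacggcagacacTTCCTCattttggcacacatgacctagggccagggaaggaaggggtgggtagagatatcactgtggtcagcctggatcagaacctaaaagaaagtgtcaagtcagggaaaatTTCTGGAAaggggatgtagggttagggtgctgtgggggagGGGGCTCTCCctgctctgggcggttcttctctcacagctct
Both windows held the GAGGAA core, at 30 to 25 bases before the start in C1qb and, on the other strand, at 193 to 188 bases in C1qc. It occurred in 23.3% of the 32851 RefSeq promoter windows of this length. C1qc also held a κB match, GGGGCTCTCC, at 41 to 32 bases before its start (3.9% of windows), and a C/EBP match, TTCTGGAA, at 81 to 74 bases (36.8% of windows). A match describes letters and not a bound site.

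C1qa lay close to the macrophage markers across arrays. The mean over 14 measured macrophage genes, given as the log2 deviation from its 14-array mean, ran from −0.37 to 0.71 in IKK2-CA, −0.17 to 0.10 in Pdx-1+/- and −0.40 to 0.11 in control islets. Its correlation with C1qa was 0.93 over the 14 arrays and 0.93 over the 12. The 5 genes most like C1qa by Pearson correlation over the 14 arrays were C1qc, Rcsd1 (0.91), Lgmn, a lysosomal protease (0.91), C1qb and Csf1r, the growth factor receptor of macrophages (0.89). Csf1r itself differed by log2 −0.21 between IKK2-CA and Pdx-1+/- islets (SE 0.18, limma adjusted p = 0.923) and by −0.01 between IKK2-CA and control islets (SE 0.17, adjusted p = 0.988). Adgre1, which encodes a surface receptor of macrophages, read 8.09 to 8.83 on IKK2-CA, 8.31 to 8.87 on Pdx-1+/- and 8.16 to 8.82 on control arrays. Of the 14 macrophage genes 0 passed against Pdx-1+/- islets and 1 rose against control islets, Ccr2, a receptor of monocytes named here after its values were seen.

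Serping1, the C1 inhibitor, was 11.85, 11.82, 11.50, 11.84 and 11.96 on the IKK2-CA arrays, against 11.92, 12.10, 11.59 and 10.66 on the Pdx-1+/- arrays and 11.98, 12.07, 11.41, 11.92 and 11.43 on the control arrays. The groups overlapped, and Pdx-1+/- array 4 was far below all the others. IKK2-CA differed from Pdx-1+/- islets by log2 0.23 (SE 0.24, limma adjusted p = 0.943) and from control by 0.03 (SE 0.23, adjusted p = 0.973). Without Pdx-1+/- array 4 the first of these was −0.07 (adjusted p = 0.941). Serping1 was at percentile 99.6 of the genes' mean signals.

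The proteases that Serping1 inhibits were the genes most like it. Over the 14 arrays its correlation was 0.99 with C1ra and 0.98 with C1s1, which encode C1r and C1s, and 0.96 with each of Zcchc24, Hoxa5 and C2, the last a protease that C1s cleaves. Over the 12 arrays it was 0.98 with C1ra and 0.97 with C1s1. C1ra read 7.65 to 8.23 on IKK2-CA, 6.51 to 8.62 on Pdx-1+/- and 7.54 to 8.52 on control arrays, with its lowest value again on Pdx-1+/- array 4. The mesothelial markers followed the same arrays, with a correlation of 0.91 with Serping1 over the 14 arrays and 0.85 over the 12. Other lists did so less closely, with stellate cells and fibroblasts at 0.73 (0.46 over the 12) and endothelial cells at 0.60 (0.38). Intestinal epithelium was at −0.84 (−0.44 over the 12) and acinar cells at −0.70 (−0.46). Upk3b, a defining gene of mesothelium, the lining of the abdominal organs, was 8.25 on Pdx-1+/- array 4 and 10.17 to 11.63 on the rest. The part of these cells in the Serping1 signal was not tested.

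**Figure D2:**
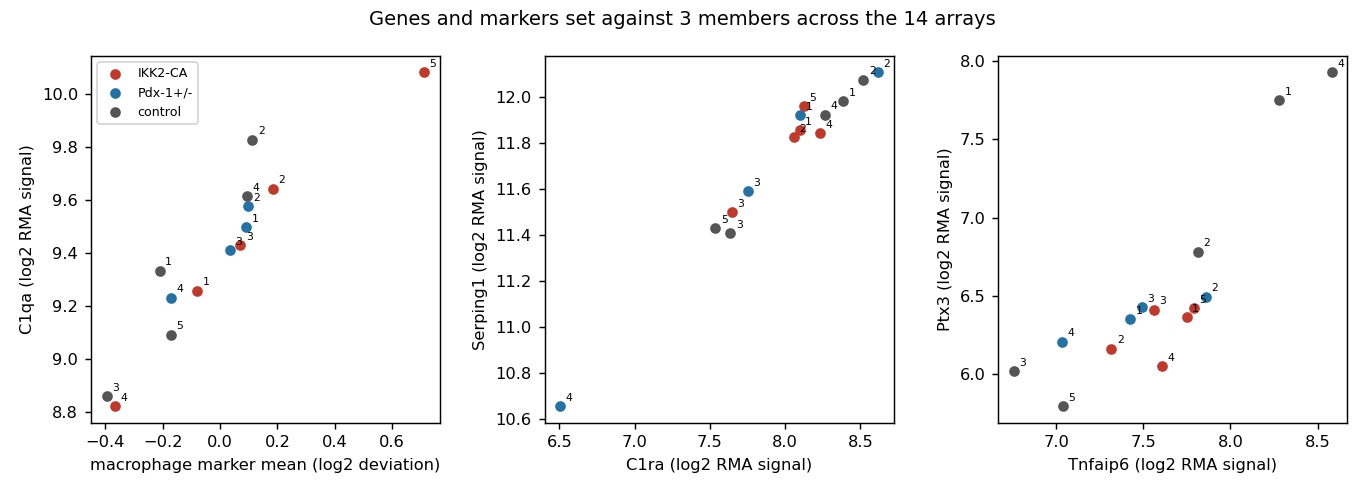
Signal of C1qa against the mean of 14 macrophage markers (as log2 deviations from their 14-array mean), of Serping1 against C1ra, and of Ptx3 against Tnfaip6 (log2 RMA signal). Each point is an array with its replicate number; IKK2-CA array 5 is highest for C1qa, Pdx-1+/- array 4 lowest for Serping1 and C1ra, and control arrays 1 and 4 highest for Ptx3 and Tnfaip6.

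Cfb, which encodes complement factor B, was 8.61, 8.48, 9.09, 8.41 and 9.85 on the IKK2-CA arrays, against 8.41, 8.41, 7.95 and 6.57 on the Pdx-1+/- arrays and 8.51, 8.70, 7.83, 8.37 and 7.86 on the control arrays. All IKK2-CA arrays lay above all Pdx-1+/- arrays, but only just: the lowest of the first was 8.414 and the highest of the second 8.411. Of all genes, 1.72% lay higher in IKK2-CA than in Pdx-1+/- islets without overlap, and Cfb was the 1 of 9 members that did, while 0.712% of all genes and 0 of 9 members lay lower without overlap. In Pdx-1+/- against control islets 0 of 9 members were without overlap, where 0.481% of all genes lay higher and 1.4% lower. Cfb was 2.08-fold higher in IKK2-CA than in Pdx-1+/- islets (log2 1.05, SE 0.37, 95% interval 1.20 to 3.60-fold), with an unadjusted p of 0.0127 and a limma adjusted p = 0.524. Against control islets, which overlapped with IKK2-CA, it was 1.55-fold (log2 0.63, SE 0.35, adjusted p = 0.424).

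The size of the Cfb difference rested on 2 arrays. Without IKK2-CA array 5 and Pdx-1+/- array 4 it was log2 0.39 against Pdx-1+/- (limma adjusted p = 0.575) and also 0.39 against control islets (adjusted p = 0.312). Without Pdx-1+/- array 4 alone it was 0.63 against Pdx-1+/- islets (adjusted p = 0.549). In Pdx-1+/- against control islets Cfb was at log2 −0.42 (SE 0.37, adjusted p = 0.999), and at 0.002 without array 4 of Pdx-1+/-. The 5 genes most like Cfb over the 14 arrays were Gbp3 (0.97), an interferon-induced GTPase, Csf1 (0.96), the growth factor of macrophages, Parp9 (0.96), Xaf1 (0.96) and Pqlc3 (0.95). Some immune and some other marker lists moved with Cfb or against it. Its correlation was 0.70 with the dendritic cell mean over the 14 arrays (0.57 over the 12), 0.63 with T and natural killer cells (0.73 over the 12) and 0.65 with macrophages (0.44 over the 12). With neutrophils it was 0.216 (0.297 over the 12). Among other lists it was 0.606 with stellate cells and fibroblasts (0.088 over the 12) and 0.579 with adipocytes (0.181 over the 12). With intestinal epithelium it was −0.775 (−0.495 over the 12), and with islet endocrine cells −0.104 (−0.759 over the 12). The T and natural killer cell mean ran from −0.26 to 0.92 in IKK2-CA, −0.43 to −0.02 in Pdx-1+/- and −0.26 to −0.03 in control islets, and 0 of its 11 genes passed. The part of these cells in the Cfb signal was not tested. Gbp3, on the arrays of IKK2-CA, read 7.07 to 8.28, against 5.36 to 6.73 on Pdx-1+/- and 6.07 to 7.24 on control arrays.

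Lcn2, the iron-withholding lipocalin, was 7.91, 7.96, 7.87, 8.37 and 10.56 on the IKK2-CA arrays, against 7.95, 7.20, 6.50 and 6.71 on the Pdx-1+/- arrays and 7.50, 7.52, 6.49, 7.37 and 6.79 on the control arrays. All 5 IKK2-CA arrays lay above all 5 control arrays, which 1.86% of all genes did and 1 of 9 members, while 2.34% of all genes and 0 of 9 members lay lower without overlap. Against Pdx-1+/- islets 3 of 5 IKK2-CA arrays lay above all 4, since Pdx-1+/- array 1 reached 7.95. The group means were 8.53 ± 1.15 in IKK2-CA (SD, n = 5), 7.09 ± 0.65 in Pdx-1+/- (SD, n = 4) and 7.13 ± 0.47 in control islets (SD, n = 5), and the last 2 did not differ beyond their spread (log2 −0.04, SE 0.48, limma adjusted p = 0.999).

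Lcn2 was 2.63-fold higher in IKK2-CA than in control islets (log2 1.40, SE 0.46, 95% interval 1.34 to 5.17-fold), with an unadjusted p of 0.00804 and a limma adjusted p = 0.131. Against Pdx-1+/- islets it was 2.72-fold higher (log2 1.44, SE 0.48, 95% interval 1.33 to 5.56-fold), with an unadjusted p of 0.00949 and an adjusted p = 0.468. By unadjusted p it ranked 1221 of 19938 genes against control and 404 against Pdx-1+/- islets. IKK2-CA array 5 set much of the size: without it the difference was log2 0.89 from control (adjusted p = 0.147) and 0.94 from Pdx-1+/- islets (adjusted p = 0.538). That array also had the highest means over adipocyte markers (2.50, against −0.50 to −0.13 on the other IKK2-CA arrays) and over dendritic cell markers (1.53, against 0.44 to 0.71). Dendritic cell markers were higher on every IKK2-CA array (0.44 to 1.53) than on any Pdx-1+/- (−0.51 to −0.22) or control array (−0.58 to −0.28). Their mean correlated with Lcn2 at 0.87 over the 14 arrays and 0.70 over the 12, and that of the adipocyte markers at 0.75 and −0.05. Other lists also moved with Lcn2: T and natural killer cells at 0.73 (0.39 over the 12), macrophages at 0.69 (0.17) and B cells at 0.62 (0.36). Duct cells were at −0.04 (0.53 over the 12) and islet endocrine cells at −0.32 (−0.59). The part of any of these cell types in the Lcn2 signal was not tested. Neutrophils store lipocalin 2, and the mean of 12 neutrophil markers ran from −0.19 to 0.19 in IKK2-CA, −0.06 to 0.09 in Pdx-1+/- and −0.10 to 0.07 in control islets, highest on IKK2-CA array 5. Of the 12 markers 0 passed in any comparison. S100a8 read 4.01 to 4.44 on IKK2-CA, 4.18 to 4.46 on Pdx-1+/- and 4.21 to 4.43 on control arrays. Csf3r, the receptor for the neutrophil growth factor, read 5.41 to 6.15 on IKK2-CA, 5.37 to 5.61 on Pdx-1+/- and 5.25 to 5.52 on control arrays (log2 0.32 in IKK2-CA against control, SE 0.12, limma adjusted p = 0.188). The part of neutrophils in the Lcn2 signal was not tested.

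The genes most like Lcn2 over the 14 arrays were Adgre5 (0.98), which encodes the leukocyte adhesion receptor CD97, Rin3 (0.97), Irf4 (0.96), a transcription factor of lymphocytes and dendritic cells, Fxyd5 (0.96) and Plekhf2 (0.95). Over the 12 arrays the value for Adgre5 was 0.95 and for Irf4 0.92. The promoter of Lcn2 is shown because it is the member that lay furthest from control in IKK2-CA islets (RefSeq, GRCm38.p6, minus strand, chr2:32387740-32387989).
Lcn2: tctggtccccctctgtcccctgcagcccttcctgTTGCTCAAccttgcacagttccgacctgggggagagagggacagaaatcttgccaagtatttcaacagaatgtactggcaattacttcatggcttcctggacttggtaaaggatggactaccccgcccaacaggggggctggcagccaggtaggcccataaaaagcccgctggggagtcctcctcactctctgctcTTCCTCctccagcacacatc
Capitals mark a C/EBP match, TTGCTCAA, at 216 to 209 bases before the start and a GAGGAA core on the other strand at 20 to 15 bases. The κB letters searched are not in this window. Of the 9 members 5 had a promoter in the table used here, and among these the κB match was in C1qc, and C/EBP matches were in C1qc, Lcn2, Saa3 and Ptx3.

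Saa3 lay at the low end of the array, at percentile 18.1 of mean signal. Its SD over the 14 arrays, 0.178, was the smallest of the measured members and at percentile 52.8 of the SDs of all genes. Saa3 read 4.24 to 4.75 on IKK2-CA, 4.13 to 4.62 on Pdx-1+/- and 4.26 to 4.61 on control arrays. IKK2-CA differed from Pdx-1+/- islets by log2 0.16 (SE 0.12, limma adjusted p = 0.89) and from control islets by 0.07 (SE 0.11, adjusted p = 0.857). The 95% interval of the change against control was 0.889 to 1.24-fold, on a scale that compresses changes of dim genes. The 5 genes most like it were Alox15 (0.88), Cyp27a1 (0.85), Itgbl1 (0.85), Serpina3n, another acute phase gene (0.84), and Irak3 (0.84).

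Hp, haptoglobin, was 5.16, 5.46, 6.15, 5.50 and 8.63 on the IKK2-CA arrays, against 5.87, 5.67, 5.97 and 5.41 on the Pdx-1+/- arrays and 5.92, 6.91, 5.70, 6.25 and 5.45 on the control arrays. IKK2-CA array 5 stood alone, and 3 of the other 4 IKK2-CA arrays (1, 2 and 4) lay below the Pdx-1+/- and control means. The difference from control was log2 0.13 (SE 0.52, limma adjusted p = 0.95), and without array 5 it was −0.48 (adjusted p = 0.415). Against Pdx-1+/- islets it was 0.45 (SE 0.55, adjusted p = 0.96), and −0.16 without that array (adjusted p = 0.999). The adipocyte marker mean correlated with Hp at 0.90 over the 14 arrays and 0.52 over the 12, and the part of fat tissue in the Hp signal was not tested.

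Ptx3, the local pentraxin, was 6.37, 6.16, 6.41, 6.05 and 6.42 on the IKK2-CA arrays, against 6.35, 6.49, 6.43 and 6.21 on the Pdx-1+/- arrays and 7.75, 6.78, 6.02, 7.93 and 5.80 on the control arrays. The spread lay in the control group, where arrays 1, 2 and 4 were above every array of the other groups and arrays 3 and 5 below every one of them. The SD was 0.17 in IKK2-CA, 0.12 in Pdx-1+/- and 0.97 in control islets. IKK2-CA differed from control by log2 −0.57 (SE 0.33, limma adjusted p = 0.458) and from Pdx-1+/- islets by −0.09 (SE 0.35, adjusted p = 0.992).

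The 5 genes most like Ptx3 included several known from inflammation and stress. Tnfaip6, which encodes TSG-6, a matrix protein that binds pentraxin 3, had a correlation of 0.87 over the 14 arrays. It read 7.32 to 7.79 on IKK2-CA, 7.03 to 7.86 on Pdx-1+/- and 6.76 to 8.58 on control arrays, with its 2 highest values on control arrays 1 and 4. The next were Sqstm1, an autophagy receptor (0.82), Maff, a stress-induced transcription factor (0.82), Rnd1 (0.80) and Tnfaip2, a TNF-induced gene (0.80). Rnd1 reached 8.64 and 8.09 on control arrays 1 and 4, against 6.04 to 7.43 on the other control arrays. On IKK2-CA arrays it read 6.75 to 8.01, highest on array 1, and on Pdx-1+/- arrays 6.09 to 7.48.

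**Figure D3:**
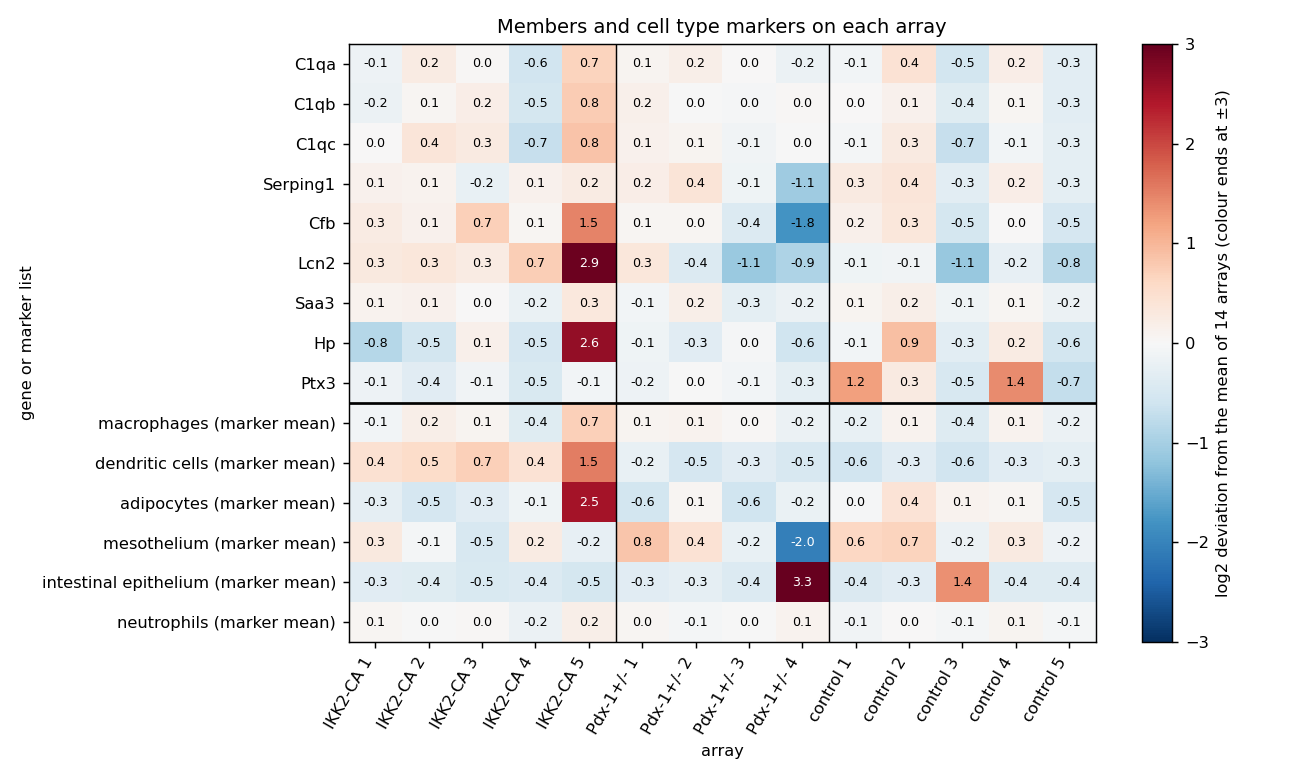
Log2 deviation of each measured member, and of the mean over 6 marker lists, from its mean over the 14 arrays (columns, grouped as IKK2-CA, Pdx-1+/- and control; colour ends at 3 either way). IKK2-CA array 5 is high for Lcn2, Hp, Cfb and adipocyte markers, Pdx-1+/- array 4 low for Cfb, Serping1 and mesothelial markers, and C1q chains and macrophage markers share their pattern.

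Whether Cfb, Lcn2 and Saa3 moved differently from C1qa was tested within arrays, as the signal of each gene minus that of C1qa on the same array. C1qa was taken as the first chain by name, and C1qb and C1qc were not tested in this way. Of the chains, C1qa differed least between IKK2-CA and control islets (log2 0.10, with C1qb at 0.16 and C1qc at 0.33), so shifts relative to C1qc would be smaller. For Lcn2 this difference was −1.35, −1.69, −1.56, −0.45 and 0.47 on the IKK2-CA arrays, against −1.55, −2.38, −2.91 and −2.53 on the Pdx-1+/- arrays and −1.83, −2.31, −2.37, −2.24 and −2.30 on the control arrays. All IKK2-CA arrays lay above all control arrays. Relative to C1qa, Lcn2 was log2 1.30 higher in IKK2-CA than in control islets (exact two-sided permutation p = 0.00794, the smallest that 5 against 5 arrays allow; adjusted over 9 tests p = 0.0714). Against Pdx-1+/- islets it was 1.43 higher (exact p = 0.0476, adjusted p = 0.107).

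For Cfb, 4 of 5 IKK2-CA arrays lay above every control array, at −0.65 to −0.24, and array 2 was at −1.16, against −1.24 to −0.82 on the control arrays and −2.67 to −1.09 on the Pdx-1+/- arrays. Relative to C1qa, Cfb was log2 0.53 higher in IKK2-CA than in control islets (exact p = 0.0317, adjusted p = 0.0952) and 1.04 higher than in Pdx-1+/- islets (exact p = 0.0238, adjusted p = 0.0952). Saa3 relative to C1qa was 0.14 above Pdx-1+/- islets (exact p = 0.413, adjusted p = 0.531) and at log2 −0.03 against control islets (exact p = 0.841, adjusted p = 0.841). No adjusted value fell under 0.05. The smallest exact p these group sizes allow, 0.00794, adjusts to 0.0714 over 9 tests when 1 test alone reaches it. A single gene in 1 comparison therefore could not pass whatever its shift, and the test does not decide whether these genes moved differently from C1qa. Without IKK2-CA array 2, where Cfb overlapped control, both Lcn2 and Cfb passed against control (log2 1.49 and 0.68, exact permutation test, adjusted p = 0.0357 each). Leaving out that array put Cfb at the smallest exact p beside Lcn2, and the tie lowered the adjusted value of both. This pass followed from the array left out and is no evidence for a shift of either gene. Without IKK2-CA array 5 neither passed (log2 0.95 and 0.45, exact permutation test, adjusted p = 0.0714 and 0.171). For Lcn2 this adjusted p is the same as with all arrays, since its other IKK2-CA arrays still lay above all control arrays. It therefore does not show whether the Lcn2 result depends on array 5.

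**Figure D4:**
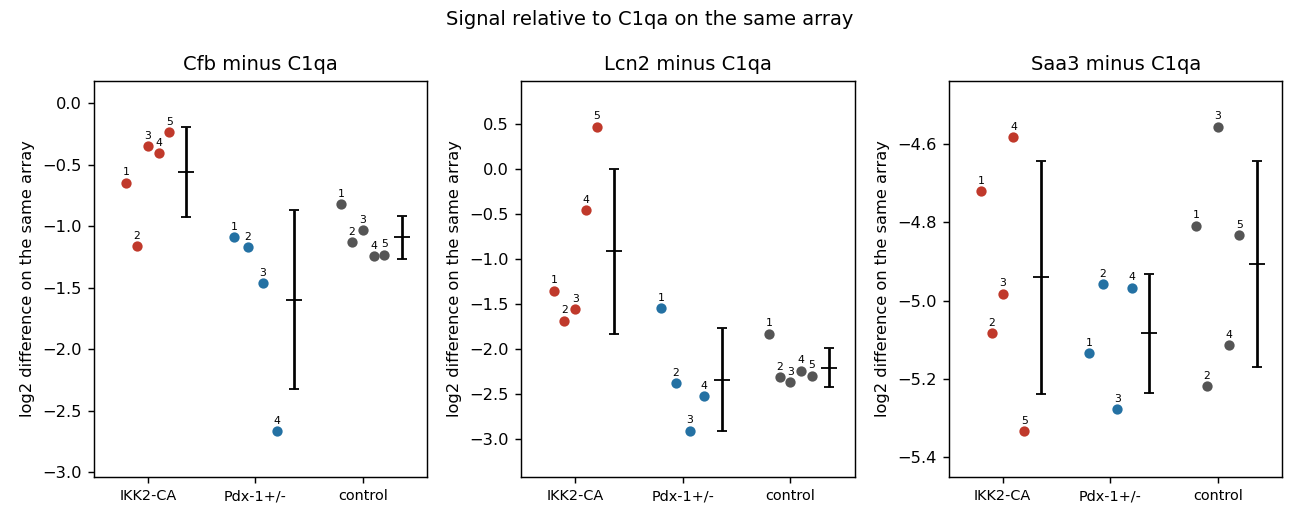
Signal of Cfb, Lcn2 and Saa3 minus that of C1qa on the same array (log2, vertical axis), by group. Points are arrays with their replicate number and the dash and bar are the mean and SD; for Lcn2 the 5 IKK2-CA arrays run from −1.69 to 0.47 and the 5 control arrays from −2.37 to −1.83.

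**Figure D5:**
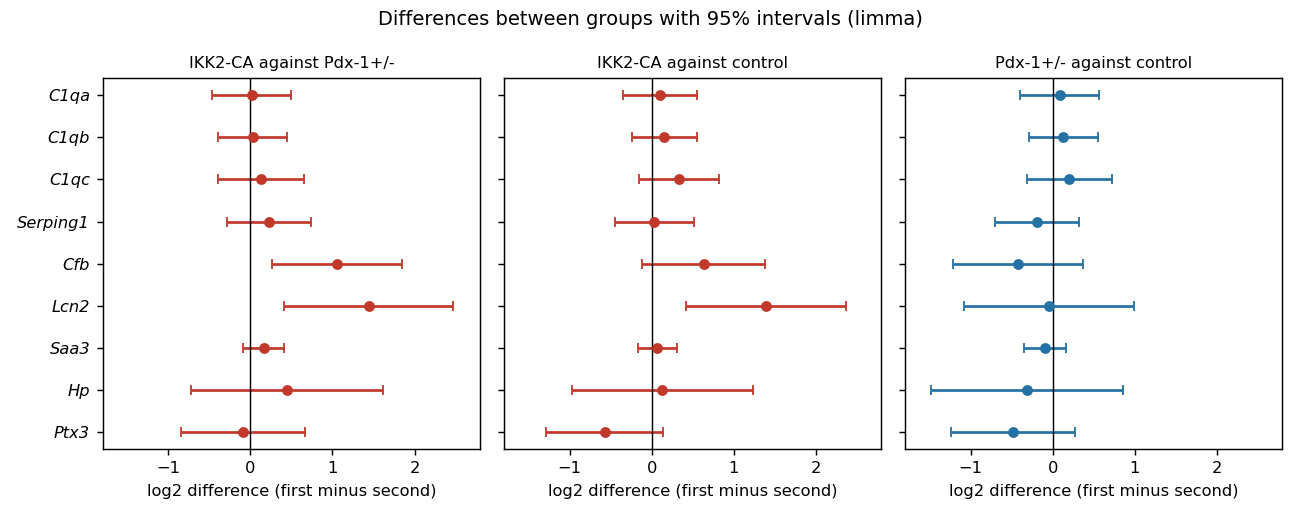
Log2 difference (horizontal axis, first group minus second) of each member in the 3 comparisons, with its 95% interval from limma. The unadjusted intervals of Lcn2 in both IKK2-CA comparisons and of Cfb against Pdx-1+/- lie above 0, while those of the C1q chains, Serping1, Saa3, Hp and Ptx3 cross it.

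With all arrays the median of the members lay above that of all genes in IKK2-CA islets, which rested on IKK2-CA array 5. Their median log2 difference was 0.16 against Pdx-1+/- and 0.13 against control islets, with 8 of 9 positive in each, whereas over all genes the medians were −0.015 and −0.012 and 45.0% and 46.4% of genes were positive. In Pdx-1+/- against control islets the median was −0.09 and 3 of 9 were positive, with −0.0049 and 48.2% over all genes. Without IKK2-CA array 5 the members' median was −0.04 against Pdx-1+/- and −0.007 against control islets, with 4 of 9 positive in each. Of all genes 47.9% and 48.6% were then positive. With Pdx-1+/- array 4 left out as well, 3 of 9 were positive against Pdx-1+/- islets (median −0.12, 50.4% of all genes) and 6 of 9 in Pdx-1+/- against control islets (median 0.08, 45.8% of all genes). The 3 comparisons share their arrays in pairs, and the 3 C1q chains move together, so these values are not independent.

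Few genes of the wider complement system passed the test. Of 15 measured genes of recognition and early steps (among them C1ra, C1s1, C2 and the lectins), 8 alternative and terminal components and 9 regulators, 0 passed in any comparison. C2 read 8.71 to 9.19 on IKK2-CA, 6.98 to 9.68 on Pdx-1+/- and 8.31 to 9.74 on control arrays, and differed by log2 −0.07 between IKK2-CA and control islets (SE 0.42, limma adjusted p = 0.97). The brightest others in these lists did not pass in that comparison, with Colec12, a scavenger collectin, at log2 −0.15 (adjusted p = 0.868), C7 at 0.10 (adjusted p = 0.914), Cfp, properdin, at 0.03 (adjusted p = 0.971) and Cd59a at 0.10 (adjusted p = 0.782). C8b, a chain of the membrane attack complex, was at log2 −0.42 (SE 0.13, adjusted p = 0.113) in that comparison. Vtn, vitronectin, which restrains that complex, was at 0.87 (SE 0.36, adjusted p = 0.243) there and at 1.07 (SE 0.38, adjusted p = 0.822) in Pdx-1+/- against control islets, and Clu, clusterin, at 0.32 (SE 0.14, adjusted p = 0.254) in IKK2-CA against control islets.

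Of 10 complement receptors 1 rose in IKK2-CA islets, Itgax, in both comparisons. It encodes the integrin chain CD11c, part of a receptor for C3 fragments and also a defining gene of dendritic cells. It read 7.29, 7.32, 7.80, 7.50 and 9.36 on the IKK2-CA arrays, against 5.48 to 5.80 on Pdx-1+/- and 5.44 to 6.12 on control arrays, a log2 difference of 2.21 from Pdx-1+/- (SE 0.33, limma adjusted p = 0.0224) and 2.16 from control islets (SE 0.31, adjusted p = 0.00395). Against Pdx-1+/- islets the call was lost when those 2 groups were fitted alone (adjusted p = 0.226), without IKK2-CA array 3 (adjusted p = 0.0536) and without any 1 Pdx-1+/- array (adjusted p = 0.0636 to 0.0984), while the log2 difference stayed between 2.16 and 2.27. Without IKK2-CA array 5 it was 1.84 (adjusted p = 9.4e-05), and 1.79 with Pdx-1+/- array 4 left out too (adjusted p = 0.000302). Other dendritic cell markers moved with it: 4 of 10 rose against Pdx-1+/- and 7 of 10 against control islets, a list that includes Itgax. C3ar1, the receptor of the C3a fragment, was at log2 0.18 (SE 0.22, adjusted p = 0.96) against Pdx-1+/- and 0.11 (SE 0.21, adjusted p = 0.875) against control islets. Calr, calreticulin, which binds C1q, was at −0.08 (adjusted p = 0.697) and Cd93 at −0.009 (adjusted p = 0.99) against control islets.

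Of 24 other acute phase genes 1 rose, Crp, in IKK2-CA against control islets. Crp encodes C-reactive protein, a liver pentraxin that binds C1q and is known as a weak acute phase reactant in mice. It was 6.88, 6.65, 6.41, 7.30 and 8.55 on the IKK2-CA arrays, against 6.14, 5.59, 6.36 and 6.63 on the Pdx-1+/- arrays and 5.39, 5.62, 5.62, 5.49 and 5.94 on the control arrays. All IKK2-CA arrays lay above all control arrays, and Pdx-1+/- arrays lay between or overlapped both. The difference was 2.92-fold against control (log2 1.55, SE 0.32, limma adjusted p = 0.0224), 1.97-fold against Pdx-1+/- islets (log2 0.98, SE 0.34, adjusted p = 0.511), and 1.49-fold in Pdx-1+/- against control islets (log2 0.57, SE 0.34, adjusted p = 0.999). Without IKK2-CA array 5 the first was log2 1.20 (adjusted p = 0.00946). Without control array 1, 3 or 4 it did not pass (adjusted p = 0.0605, 0.0686 and 0.0662), while its size stayed at log2 1.49, 1.55 and 1.52. The brightest of the list were the metallothioneins Mt2 and Mt1, at log2 0.03 (adjusted p = 0.95) and −0.01 (adjusted p = 0.983), and Trf, transferrin, at 0.006 (adjusted p = 0.996), in IKK2-CA against control islets. Alb, the defining gene of hepatocytes, read 5.98 to 6.87 on IKK2-CA, 5.68 to 6.53 on Pdx-1+/- and 5.15 to 5.90 on control arrays, at log2 0.77 in IKK2-CA against control islets (SE 0.19, adjusted p = 0.0537). The hepatocyte list was split: 0 of its 11 genes passed, 7 were positive against control and 4 against Pdx-1+/- islets (medians 0.04 and −0.08), Tat was at log2 −0.70 (SE 0.23, adjusted p = 0.139) and Apoa1 at −0.64 (SE 0.92, adjusted p = 0.828) against control. The list mean ran from −0.20 to 0.28 in IKK2-CA, −0.23 to 0.62 in Pdx-1+/- and −0.29 to 0.28 in control islets. The part of hepatocytes in the Crp signal was not tested.

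Genes that signal the acute phase response were not called either. Of 25 measured, 22 were positive against Pdx-1+/- and 20 against control islets (median log2 0.22 and 0.20), and 0 passed in any comparison. Of all genes 45.0% and 46.4% were positive in these comparisons (median log2 −0.015 and −0.012). The 3 with the highest mean signal were Nfkbia, the NF-κB inhibitor, at log2 0.20 (SE 0.30, limma adjusted p = 0.975), Il6st, the shared receptor of the interleukin 6 family, at 0.10 (SE 0.19, adjusted p = 0.983), and Lifr, its partner, at −0.07 (SE 0.14, adjusted p = 0.983), all in IKK2-CA against Pdx-1+/- islets. The list had its highest mean on IKK2-CA array 5, 0.68 against 0.02 to 0.17 on the other 4 IKK2-CA arrays. Of 14 receptors and partners of the members 0 passed, among them the scavenger receptor Cd36 at log2 0.28 (SE 0.32, adjusted p = 0.763), Lrp1 at log2 −0.08 (SE 0.26, adjusted p = 0.934) and Fcgr2b at 0.48 (SE 0.20, adjusted p = 0.246) in IKK2-CA against control islets.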

How the data were processed

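Per the labels' protocols and the submitters' processing notes, the authors labelled total islet RNA with the WT Sense Target method, hybridised it to Affymetrix Mouse Gene 1.0 ST arrays and summarised it by RMA in Affymetrix Expression Console, with no version given here. The authors' table holds 1 log2 signal for each transcript cluster and array, the base being read from the range of values, and it was used without further normalization or filter. Of 35556 clusters, 21789 with 1 symbol in the platform gene table gave 19938 genes (the highest mean kept where a gene had several). limma 3.58.1 in R 4.3.3 fitted 3 group means over the 14 arrays (lmFit, eBayes; 11 residual and 3.46 prior degrees of freedom), with Benjamini-Hochberg adjustment over all genes of a comparison. The gene minus C1qa values were tested by exact permutation, adjusted over 9 tests. Array medians over these genes were 6.45 to 6.55. The number of arrays and signal over background limit precision.

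Members and lists were chosen with earlier results of these data known. Named by rule are the members, pathway genes past the threshold, the 3 brightest of each pathway list, the 5 genes most correlated with a member, Pdx1 and Ikbkb, and, where a result touches that cell type, up to 3 bright and the defining genes of a marker list. Replicate numbers recur in the groups, but 2 of 13 same-number pairs of arrays correlated above 0.1 after removing group means (−0.391 to 0.356), so they were not taken as pairs. The fits were tested on simulated data.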

Additional observations from a re-analysis of the deposited data

Results flagged for a closer look

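In 33 of 306 groups of 4 or 5 arrays examined, 1 array lay far from the others by Dixon's criterion, which chance meets in about 1 of 20. Among the members these were Lcn2, at 10.56 on IKK2-CA array 5 against 7.87 to 8.37 on the other IKK2-CA arrays, and Hp, at 8.63 on the same array against 5.16 to 6.15. That array also stood apart for Itgax (9.36), Fabp4 (11.14), Lipe (9.18), Cidec (11.27), Adipoq (10.60) and Cyp2e1 (12.52), and for the list means of adipocytes (2.50), dendritic cells (1.53) and acute phase signalling (0.68).

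Pdx-1+/- array 4 was high for Lgals4 (8.81), Apoa4 (9.21), Sis (9.16) and Apoa1 (10.85), and for the list means of intestinal epithelium (3.31) and hepatocytes (0.62). It was low for Lyz2 (11.13, against 11.56 to 11.65 on the other Pdx-1+/- arrays) and Csf1r (9.55, against 10.05 to 10.14). Control array 3 was high for Apoa4 (8.08), Sis (6.05), Apoa1 (9.64) and the intestinal list (1.36). On other arrays the low values were C1s1 (9.43), Tat (6.19) and Dcn (12.30) on IKK2-CA array 3 and Mpo (4.87) on IKK2-CA array 4. The list mean of T and natural killer cells (−0.43) was low on Pdx-1+/- array 3. High values were C8b (8.01) and Alb (6.87) on IKK2-CA array 4 and Cd209a (8.17) on Pdx-1+/- array 1. The list means of alternative and terminal complement (0.10) on Pdx-1+/- array 2 and endothelial cells (0.35) on control array 4 were also high.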

How the results depend on the processing

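No member passed in limma under any alternative tried, and the cause of the shifts below was not tested. Relative to C1qa, Lcn2 and Cfb passed only against control and only without IKK2-CA array 2 (exact permutation test, adjusted p = 0.0357 each). That is the array where Cfb overlapped control, so this pass followed from the array left out. Genes called in IKK2-CA against Pdx-1+/- islets were 15, and 1 with only the 2 groups fitted, 52 with IKK2-CA array 5 and Pdx-1+/- array 4 left out, and 48 with control array 3 left out too (2 to 66 leaving out 1 array). Against control islets they were 448, and 241 with only the 2 groups and 186 without the 3 arrays (120 to 980 leaving out 1). In Pdx-1+/- against control islets they were 19, and 11 without the 3 arrays (9 to 48 leaving out 1). With those 2 arrays left out, 15, 356 and 12 of the genes called with all arrays were called again.

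Replicate numbers did not pair the arrays. With the number as a replicate block, 9, 197 and 9 genes were called in the 3 comparisons, and small log2 differences changed sign: C1qa −0.03, C1qb −0.034 and Ptx3 0.027 in IKK2-CA against Pdx-1+/-, and Lcn2 0.165 and Itgax 0.185 in Pdx-1+/- against control islets.

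Under quantile normalization C1qa was −0.009 in IKK2-CA against Pdx-1+/- and Serping1 −0.02 against control islets. With the same 2 arrays left out, and control array 3 kept or not, the differences from Pdx-1+/- islets were −0.208 for C1qa, −0.149 for C1qb, −0.053 for C1qc, −0.116 for Serping1 and −0.271 for Hp. Without these 2 arrays the IKK2-CA differences from control were −0.057 for C1qa, −0.017 for C1qb, −0.007 for Serping1, −0.481 for Hp and 0.064 for Saa3 minus C1qa. Those in Pdx-1+/- against control islets were then 0.002 for Cfb, 0.109 for Serping1 and 0.083 for Lcn2. Without control array 3 as well, the IKK2-CA differences from control were −0.179 for C1qa, −0.085 for C1qb, −0.096 for Serping1, −0.027 for Saa3, −0.568 for Hp and 0.152 for Saa3 minus C1qa, and Serping1 was 0.02 in Pdx-1+/- against control islets.

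Leaving out 1 array at a time, the ranges that crossed 0 in IKK2-CA against Pdx-1+/- were −0.142 to 0.174 for C1qa, −0.147 to 0.174 for C1qb, −0.044 to 0.344 for C1qc, −0.075 to 0.407 for Serping1 and −0.163 to 0.705 for Hp. Against control they were −0.057 to 0.258 for C1qa, −0.017 to 0.304 for C1qb, −0.055 to 0.111 for Serping1, −0.481 to 0.387 for Hp and −0.124 to 0.064 for Saa3 minus C1qa. In Pdx-1+/- against control they were −0.612 to 0.002 for Cfb, −0.037 to 0.206 for C1qa, −0.373 to 0.109 for Serping1, −0.332 to 0.151 for Lcn2, −0.12 to 0.05 for Itgax and −0.394 to 0.06 for Lcn2 minus C1qa. Relative to C1qa, Cfb ran from 0.451 to 0.682 and Lcn2 from 0.949 to 1.488 against control. Signal over background limits what dim genes such as Saa3 can show.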

Other observations

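Serpina3n, an acute phase serpin that was among the genes most like Saa3, had a wider spread than Saa3 itself. It read 9.49, 9.18, 9.73, 9.19 and 11.12 on the IKK2-CA arrays, against 8.86, 9.51, 8.29 and 8.21 on the Pdx-1+/- arrays and 9.34, 9.41, 8.46, 9.31 and 8.18 on the control arrays, and did not pass in limma (log2 1.03, SE 0.40, adjusted p = 0.598 against Pdx-1+/- and log2 0.80, SE 0.37, adjusted p = 0.316 against control). The genes most like Hp had their signal on IKK2-CA array 5. Pon1, which encodes the lipoprotein enzyme paraoxonase, was 7.14 there, against 4.04 to 4.47 on the other IKK2-CA arrays, 4.04 to 4.23 on Pdx-1+/- and 4.19 to 4.76 on control arrays. Its correlation with Hp was 0.92 over the 14 arrays and 0.63 over the 12 without IKK2-CA array 5 and Pdx-1+/- array 4.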
